A study of Mus musculus with 2 samples.

Results

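Platelet-derived growth factors (PDGFs) and transforming growth factors beta (TGF-beta) are among the ligands through which the cells of the liver sinusoid signal to hepatic stellate cells. In all, 10 genes of these pathways were examined among the 32285 genes counted. The 10 genes were chosen by symbol. They were the PDGF ligands *Pdgfa*, *Pdgfb*, *Pdgfc* and *Pdgfd*, the PDGF receptors *Pdgfra* and *Pdgfrb*, the ligands *Tgfb1*, *Tgfb2* and *Tgfb3*, and the type II TGF-beta receptor *Tgfbr2*. Endothelial cells were purified from mouse liver with magnetic beads against CD146 and measured by 3′ single-cell RNA sequencing, where every captured mRNA molecule carries its own identifier (UMI). There were 2 libraries, 1 per condition, and each came from the pooled livers of 3 mice. The Maf LSEC-KO library came from mice with Clec4g-iCre tg/wt and 2 floxed *Maf* alleles (Maf fl/fl), so that the gene of the transcription factor c-Maf is deleted in liver sinusoidal endothelial cells (LSECs), where the *Clec4g* promoter drives Cre from late fetal life. The control library is labelled WT. By the methods of the study, controls were littermates without Cre that carried Maf fl/fl or Maf fl/wt. In what follows, the Maf LSEC-KO library is called the knockout. The study used mice of both sexes at 3 and 6 months, and age and sex of these 2 pools are not stated in the labels. With 1 library per condition nothing could be tested between conditions. All intervals are exact 95% intervals that cover counting error only, and they do not cover the spread between mice.

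PDGF ligands act as dimers on 2 receptor tyrosine kinases. PDGF-B is secreted by endothelial cells, stays near them through binding to the matrix and recruits pericytes, the mural cells that carry PDGFR-beta. The stellate cell is the pericyte of the liver sinusoid. In quiescence it stores vitamin A. After activation it divides in response to PDGF and deposits collagen in response to TGF-beta. TGF-beta is secreted in a latent complex, is released from it by integrins and proteases, and signals through the receptor pair encoded by *Tgfbr2* and *Tgfbr1* to SMAD proteins.

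Levels are given as CPM, the UMIs of a gene per 1000000 UMIs, with genes of mitochondria and ribosomal proteins left out of the total. After barcodes with few UMIs, doublets and endothelial cells with a *Vwf* UMI, a marker of larger vessels, had been left out, 4117 control LSECs (median 8386 UMIs) and 3163 knockout LSECs (median 14015 UMIs) remained. The 14 general endothelial markers stood at 259 CPM or above in the LSECs of both libraries. The 10 sinusoidal markers summed to 18784 CPM in control and 5865 CPM in knockout LSECs, and *Stab2*, a scavenger receptor of the sinusoid, stood at 1632 and 179 CPM. *Maf*, the deleted gene (chromosome 8, 115682942 to 115707794, mm10), stood at 3463 CPM (3443 to 3483) in control LSECs. In knockout LSECs it stood at 121 CPM (118 to 125), and a *Maf* UMI was found in 20.9% of them against 99.1% of control LSECs. Among the marker lists of other cells, the summed level in LSECs was 686 and 458 CPM for hepatic stellate cells, 73.4 and 119 CPM for macrophages, 164 and 67.8 CPM for hepatocytes, 1251 and 13.2 CPM for erythroid cells, and 34.9 and 411 CPM for fibroblasts and smooth muscle, of which *Cd34*, a gene that endothelial cells also use, made up 29.3 and 388 CPM. Their part in the differences given here was not tested. A gene was called when its ratio between the libraries was at least 2-fold and the interval of the ratio excluded 1, and only genes that reached 10 CPM in 1 of the libraries were considered. Of 9297 such genes in LSECs, 10.3% were called higher and 4.71% lower in the knockout. Their median log2 ratio was 0.13.

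Positions in mm10 follow the GENCODE M21 annotation, which has the same gene identifiers as the counts, and no pair of the ligand genes lies side by side. *Pdgfa* lies on chromosome 5 (138976014 to 138997370, minus strand). *Pdgfb* is on chromosome 15 (79995874 to 80014977, minus strand) and *Pdgfc* on chromosome 3 (81036416 to 81214040, plus strand). *Pdgfd* (6168584 to 6378850, plus strand) and *Tgfbr2* (116084293 to 116175360, minus strand) lie far apart on chromosome 9. *Tgfb1* is on chromosome 7 (25687002 to 25705077, plus strand), *Tgfb2* on chromosome 1 (186622792 to 186705989, minus strand) and *Tgfb3* on chromosome 12 (86056745 to 86079041, minus strand).

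Promoter sequences, from 250 bases before to 50 bases after the annotated start, were taken from RefSeq (GRCm38.p6), where 8 promoters matched 7 of the 10 genes. Promoters of *Pdgfb*, *Pdgfrb* and *Tgfb3* had no entry there and were not searched for any motif. Those of *Tgfbr2*, the receptor that was lower in knockout LSECs, and of *Tgfb1*, the ligand that did not differ beyond counting error, are shown because these genes had the highest UMI sums of the 10 in control LSECs. Each is written 5′ to 3′ on the strand of its gene, with motif matches on either strand in capitals. In the first, chr9:116175314-116175613 on the minus strand, the capitals mark the letters ACAGGAA, 1 form of the ETS site, and no other form is marked. In the second, chr7:25686752-25687051 on the plus strand, they mark the GC box GGGCGG.
Tgfbr2: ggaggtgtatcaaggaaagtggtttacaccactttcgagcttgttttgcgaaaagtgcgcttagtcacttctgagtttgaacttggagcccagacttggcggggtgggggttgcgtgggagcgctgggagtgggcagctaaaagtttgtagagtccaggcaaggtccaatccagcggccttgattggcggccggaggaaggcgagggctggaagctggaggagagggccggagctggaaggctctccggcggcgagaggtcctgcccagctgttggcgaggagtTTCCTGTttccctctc
Tgfb1: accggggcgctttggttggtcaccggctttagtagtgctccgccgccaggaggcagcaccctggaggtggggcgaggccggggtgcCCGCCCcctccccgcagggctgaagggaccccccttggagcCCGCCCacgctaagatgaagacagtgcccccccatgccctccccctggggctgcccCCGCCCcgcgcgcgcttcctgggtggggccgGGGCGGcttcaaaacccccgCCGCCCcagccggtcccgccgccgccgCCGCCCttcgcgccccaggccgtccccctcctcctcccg
The letters TGCTGAC, a half-site of MAF factors, were found in 0 of these 8 promoters and in 4.67% of all 32851 promoters of the same length. The letters ACAGGAA were present in 1 of the 8, that of *Tgfbr2*, and in 8.67% of all promoters. The GC box was present in 3 of the 8 (both *Pdgfa* promoters and that of *Tgfb1*) and in 35.7% of all. The *Tgfb1* promoter consists of 77% G and C and holds 6 matches of the GC box, overlapping ones counted, and the *Tgfbr2* promoter of 59%.

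Among the ligands, *Pdgfb* was higher in knockout LSECs, and the other PDGF ligands were not. In control LSECs, 474 UMIs of *Pdgfb* gave a level of 14.4 CPM (13.1 to 15.8), and in knockout LSECs 5432 UMIs gave 138 CPM (134 to 142). The level in knockout was 9.57-fold that of control (8.71 to 10.5), a log2 ratio of 3.26 (3.12 to 3.40). The 2 intervals lie far apart. A *Pdgfb* UMI was found in 7.68% (6.88 to 8.53) of control LSECs and in 59.5% (57.8 to 61.2) of knockout LSECs. After each cell had been thinned to 2700 UMIs, which left out 412 control and 173 knockout LSECs, these shares were 2.43% (1.96 to 2.98) and 21.6% (20.1 to 23.1). Other classes also held *Pdgfb* UMIs. In the knockout library a *Pdgfb* UMI was found in 10.5% of 38 B cell-like cells (median 5834 UMIs), 29.0% of 62 T and NK cell-like cells (5860 UMIs), 35.7% of 70 neutrophil and monocyte or dendritic cell-like cells (8284 UMIs) and 2.35% of 85 neutrophil and monocyte-like cells (4324 UMIs). In the control library it was found in 0 of 47 B cell-like cells (7540 UMIs), which allows a share of up to 6.38%. These barcodes carried endothelial RNA, with the 14 endothelial markers at a median of 68.3% of their LSEC level in control and 13.7% in knockout B cell-like cells. The number of UMIs per positive cell also differed. Among control LSECs, 226 held 1, 55 held 2 and 35 held 3 or more *Pdgfb* UMIs, with at most 9 in a cell. Among knockout LSECs, 676 held 1, 451 held 2 and 756 held 3 or more, with at most 21.

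*Pdgfd*, a ligand that binds PDGFR-beta after cleavage of its CUB domain, was measured at 29.0 CPM (27.2 to 30.9) among control LSECs, while knockout LSECs had 27.2 CPM (25.6 to 28.9). Its log2 ratio of −0.09 (−0.22 to 0.03) leaves changes of more than 1.16-fold in either direction outside the interval. *Pdgfa*, which acts mainly through PDGFR-alpha, stood below the minimum of 10 CPM in both, with 5.32 CPM (4.56 to 6.17) among control LSECs and 2.80 CPM (2.30 to 3.37) among knockout LSECs. *Pdgfc*, another ligand of PDGFR-alpha, had 4 and 7 UMIs in all LSECs. Of all UMIs of the 4 PDGF ligands in control LSECs (1607), *Pdgfd* held 59.4% (56.9 to 61.8) and *Pdgfb* 29.5% (27.3 to 31.8). In knockout LSECs (6620 UMIs) these shares were 16.2% (15.3 to 17.1) and 82.1% (81.1 to 83.0). The counts are of 3′ ends and are not per length, so these shares are to be compared between libraries for 1 gene and not between genes. The 4 ligands together stood at 48.9 CPM in control and 168 CPM in knockout LSECs.

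*Tgfb1*, the main TGF-beta isoform of the liver, did not differ between the libraries beyond counting error. Its 9770 UMIs among control LSECs gave 297 CPM (291 to 303), and its 11814 UMIs among knockout LSECs gave 300.2 CPM (295 to 306), a log2 ratio of 0.01 (−0.02 to 0.05). Scaling to the UMIs of all genes moved it to −0.17 (−0.21 to −0.14), as this scaling moves every log2 ratio by −0.19. A *Tgfb1* UMI was found in 76.3% of control and 82.6% of knockout LSECs, and in 46.3% and 44.1% after thinning. In the cholangiocyte-like cells of the knockout library (median 14141 UMIs) the shares were 16.2% and, after thinning, 0 of 37 cells, which allows up to 8.11%. *Tgfb2* and *Tgfb3*, the other isoforms, stood below 10 CPM in LSECs. *Tgfb2* had 31 UMIs in control and 62 in knockout LSECs, and *Tgfb3* had 24 and 34. At this depth no change of *Tgfb3* was detectable, with a log2 ratio of 0.24 (−0.55 to 1.06).

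*Tgfbr2*, the receptor that binds TGF-beta first and then recruits the type I receptor, was lower in knockout LSECs. Its level was 232 CPM (227 to 238) from 7644 UMIs among control LSECs and 106 CPM (103 to 109.6) from 4184 UMIs among knockout LSECs. The level in control was 2.19-fold that of the knockout (2.11 to 2.27), a log2 ratio of −1.13 (−1.18 to −1.07). This is just past the 2-fold limit, and it fell short of it with the mean over cells of CPM (−0.91) and without cycling cells (−0.98). The share of LSECs with a *Tgfbr2* UMI was 68.4% and 62.5%, and 38.9% and 20.2% after thinning. The PDGF receptors were nearly absent from LSECs, with 4 *Pdgfra* and 2 *Pdgfrb* UMIs in control and 1 and 2 in knockout LSECs.

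In all, 4 of the 10 genes reached 10 CPM in LSECs of either library. Of these, *Pdgfb* was called higher (10.3% of all genes tested were), *Tgfbr2* was called lower (4.71% of all were), and *Pdgfd* and *Tgfb1* were called neither. The plot of the 10 genes in LSECs shows the 2 levels of each gene side by side.

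**Figure D1:**
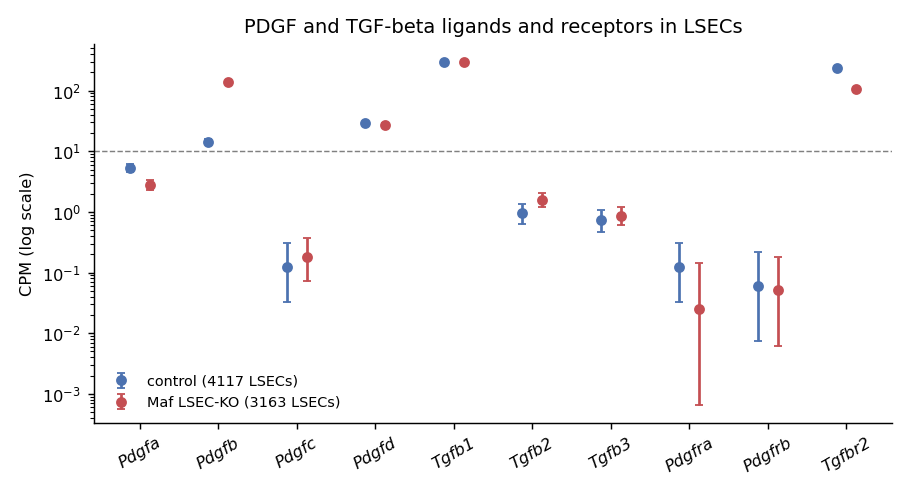
Level of each gene in the LSECs of both libraries, in CPM on a log axis. Points are sums over 4117 control or 3163 Maf LSEC-KO LSECs, bars are exact Poisson 95% intervals (counting error only), and the dashed line is the minimum of 10 CPM. The levels of *Pdgfb* and *Tgfbr2* are apart, those of *Pdgfd* and *Tgfb1* are close together, and the remaining genes lie under the line.

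The level of *Pdgfb* varied among LSECs of the same library less than between the libraries. In the 7 LSEC clusters of the control library, of 162 to 1326 LSECs each, it ranged from 6.35 CPM (3.17 to 11.4) in cluster 2 to 26.3 CPM (17.9 to 37.4) in cluster 6. Cluster 2 held 11 *Pdgfb* UMIs at a median depth of 3315 UMIs, and its leading genes are hepatocyte and hemoglobin genes among others. Cluster 6 is led by *Igfbp5*, *Nrg1* and the arterial gap junction gene *Gja5*. In the 5 LSEC clusters of the knockout library, of 165 to 1162 LSECs each, the *Pdgfb* level ranged from 60.2 CPM (49.0 to 73.2) in cluster 5 to 185 CPM (165 to 207) in cluster 4, which is also led by *Gja5*. Cluster 2, the cycling one, had 143 CPM (136 to 150). The lowest knockout cluster thus stood above the highest control cluster. In control, cluster 6 did not differ beyond counting error from the cycling cluster 7, at 25.9 CPM (19.9 to 33.1). The leading genes of this cluster 7 also include T and NK cell genes (*Gzma*, *Nkg7* and *Ccl5*). *Pdgfd* stood at 51.9 CPM (41.6 to 64.0) in knockout cluster 4, above the other knockout clusters, and in control at 39.1 CPM (28.6 to 52.1) in cluster 6 and 35.6 CPM (30.1 to 41.8) in cluster 3, whose intervals overlap with each other and with those of other control clusters.

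Cluster 5 of the knockout library had kept *Maf*, at 2329 CPM against 19.2 to 30.8 CPM in the other 4 clusters. It held 81.0% of all *Maf* UMIs of these LSECs. Its *Tgfbr2* level was 208 CPM (186 to 231), within the range of the control clusters (149.7 to 291 CPM), while clusters 0, 1 and 2 stood at 78.1 to 109.5 CPM. The *Gja5* cluster 4, which had not kept *Maf*, also had a high *Tgfbr2* level of 204 CPM (183 to 227). The clusters were formed from the same cells and genes, and these levels are given as a description. When knockout LSECs were divided by their *Maf* UMIs, the 197 LSECs with 5 or more had *Pdgfb* at 68.5 CPM (57.5 to 81.1). The 2503 LSECs without a *Maf* UMI had it at 142 CPM (138 to 146), and the log2 ratio was 1.05 (0.80 to 1.31). *Tgfbr2* went the other way, with 189 CPM in the LSECs with 5 or more *Maf* UMIs and 103 CPM in those with none, a log2 ratio of −0.88 (−1.03 to −0.72). *Tgfb1* and *Pdgfd* had log2 ratios of −0.18 (−0.29 to −0.06) and 0.06 (−0.34 to 0.49) in the same comparison. The median depth was 9920 UMIs in the LSECs with 5 or more *Maf* UMIs and 13883 in those with none. The LSECs with 5 or more *Maf* UMIs still had *Pdgfb* above the control level of 14.4 CPM.

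*Tgfb1* ranged over the LSEC clusters from 196 CPM (172 to 223) in control cluster 6 to 351 CPM (340 to 363) in knockout cluster 1, and the ranges of the libraries overlapped. Cycling LSECs were more frequent in the knockout library, where 1057 LSECs held UMIs of at least 2 of 10 cell cycle genes against 136 in the control. Within the control library, *Pdgfb* stood at 29.0 CPM in these cells and 13.5 CPM in the others, a log2 ratio of 1.10 (0.66 to 1.51). Within the knockout library the values were 142 and 134 CPM, a log2 ratio of 0.08 (0.00 to 0.16). Without cycling cells the log2 ratio of *Pdgfb* between the libraries was 3.31 (3.16 to 3.46).

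**Figure D2:**
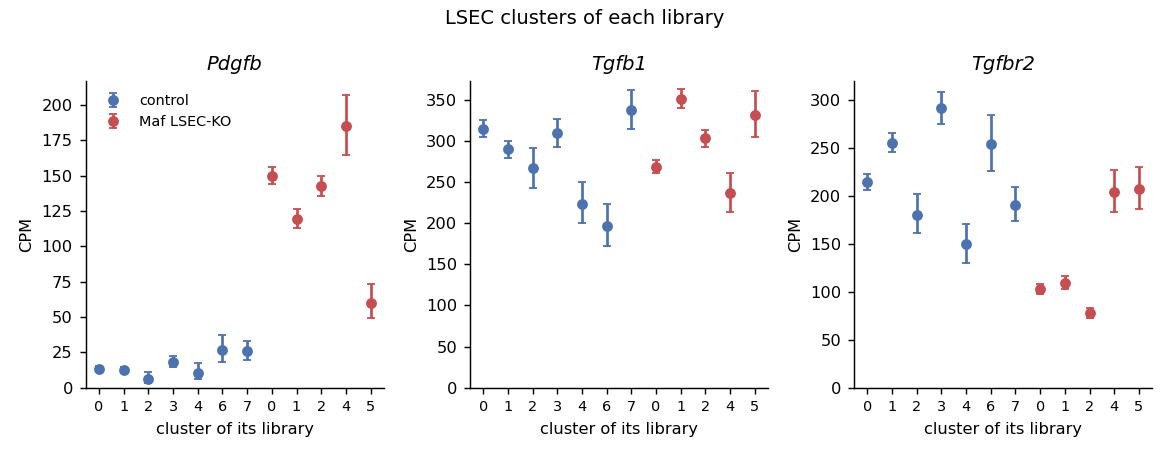
Levels of *Pdgfb*, *Tgfb1* and *Tgfbr2*, in CPM, in each LSEC cluster of the control and the Maf LSEC-KO library, with cluster numbers given by each library's own clustering. Bars are exact Poisson 95% intervals. For *Pdgfb* every Maf LSEC-KO cluster lies above every control cluster, for *Tgfb1* the libraries overlap, and for *Tgfbr2* Maf LSEC-KO clusters 4 and 5 lie among the control clusters.

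*Tgfb2* was found in few endothelial cells, many of which held UMIs of vein genes. Of the 31 UMIs in control LSECs, 83.9% were in cluster 3, which is led by *Rspo3*, *Wnt9b* and *Selp*, genes of the central vein and the LSECs next to it. *Tgfb2* is itself among the leading genes of this cluster, so this share is a description. Endothelial cells with a *Vwf* UMI, left out of the LSECs, held another 126 *Tgfb2* UMIs in 161 cells, 73.0 CPM (60.8 to 86.9). Among control endothelial cells with and without *Vwf* but outside the mixed clusters, 52 had a *Tgfb2* UMI. Of these, 86.5% (74.2 to 94.4) had a UMI of *Rspo3*, a Wnt enhancer, and 75.0% (61.1 to 86.0) one of *Wnt9b*, against 8.40% and 7.86% of the 4226 others. In the knockout library, where mixed cluster 6, led by *Dcn*, *Rspo3*, *Ccl21a* and *Bmp4*, is likewise left out, 81 endothelial cells had a *Tgfb2* UMI, and *Rspo3* was found in 19.8% (11.7 to 30.1) and *Wnt9b* in 13.6% (6.98 to 23.0) of them, against 3.72% and 2.47% of the 4091 others. The median depths of the cells with a *Tgfb2* UMI were 10538 UMIs in control and 16639 UMIs in the knockout. *Vwf* UMIs were much more frequent in the knockout library, in 24.2% of these endothelial cells against 3.76% in control. The *Vwf* filter thus removed a much larger share of the knockout endothelium, and the mixed cluster left out of it held 343 *Tgfb2* UMIs in 95 of its 167 cells. With *Vwf*-positive cells kept, the *Tgfb2* level was 4.54 CPM (3.86 to 5.30) for control and 2.17 CPM (1.80 to 2.60) for the knockout. The log2 ratio turned from 0.74 (0.10 to 1.41) in LSECs to −1.06 (−1.42 to −0.71). With the mixed clusters counted in as well, an alternative chosen after seeing the data, *Tgfb2* had 182 UMIs in control, 5.07 CPM (4.36 to 5.86), and 462 UMIs in the knockout, 8.09 CPM (7.37 to 8.86), a log2 ratio of 0.67 (0.42 to 0.93). Of the 58 control cells with a *Tgfb2* UMI counted in this way, 77.6% (64.7 to 87.5) also held *Rspo3*, and of the 176 such knockout cells 59.1% (51.4 to 66.4) did. The direction for *Tgfb2* in the endothelium thus depends on which cells are counted, and none is given.

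The *Vwf*-positive endothelial cells also had a higher *Pdgfb* level than LSECs in the control library, 48.7 CPM (38.8 to 60.2) against 14.4 CPM, a log2 ratio of 1.75 (1.40 to 2.09). In the knockout library, 1009 *Vwf*-positive cells had *Pdgfb* at 122 CPM (117 to 128), below the 138 CPM of the LSECs. *Tgfbr2* was higher in *Vwf*-positive cells of both libraries, by a log2 ratio of 0.49 (0.37 to 0.62) in control and 0.39 (0.32 to 0.47) in the knockout. With these cells counted as LSECs, *Pdgfb* had a log2 ratio of 3.05 (2.93 to 3.18) between the libraries.

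Across all cell classes of 20 or more cells, 16 class and library units in all, the order of *Pdgfb* levels was led by the knockout LSECs and the *Vwf*-positive cells of the same library. The next neighbours in the order overlapped in their intervals, among them mixed cluster 9 of the knockout library (110.1 CPM, 82.0 to 145), its cholangiocyte-like cells (93.6 CPM, 69.2 to 124) and its macrophage-like cells (86.1 CPM, 74.5 to 99.0). The highest control unit was the *Vwf*-positive endothelium. B cell-like cells of the control came last with 0 UMIs, which allows up to 7.15 CPM. Among the 7615 genes that reached 50 CPM in a unit, the pattern of *Lysmd2* was most like that of *Pdgfb* (Pearson's r of 0.80 for log2(CPM + 1) over the 16 units), followed by *Gm42047*, *Mrpl48*, *Adrm1* and *Mmp15* with r of 0.76 to 0.79. Units of the same library share their preparation and depth.

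*Pdgfb* was also called higher in macrophage-like cells, the resident phagocytes of the sinusoid. The 219 macrophage-like cells of the control held 43 *Pdgfb* UMIs, 28.7 CPM (20.8 to 38.7), and the 387 of the knockout library held 197 UMIs, 86.1 CPM, a log2 ratio of 1.58 (1.10 to 2.10). In these cells 3.7% of 9336 genes were called higher and 7.65% lower, so that 1 of the 5 genes that reached 10 CPM there was called higher and 0 lower. RNA of endothelial cells was present in these barcodes. The 14 endothelial markers stood at a median of 28.5% of their LSEC level in the macrophage-like cells of the control (25.8 to 47.9% for the single genes) and at 13.6% (10.4 to 40.4%) in those of the knockout library. *Pdgfb* stood at 199% of its LSEC level in the control and at 62.4% in the knockout, above the range of the endothelial markers in both. The same held for other classes of the knockout library. *Pdgfb* stood at 67.8% of the LSEC level in cholangiocyte-like cells (endothelial markers 0.72 to 5.91%), at 52.7% in T and NK cell-like cells (14.7 to 32.3%) and at 48.3% in neutrophil and monocyte or dendritic cell-like cells (6.45 to 19.6%). In neutrophil and monocyte-like cells it stood at 5.76%, within the 3.57 to 12.4% of the endothelial markers, and in B cell-like cells at 23.9%, within 8.09 to 27.3%. The part of carried-over RNA in the *Pdgfb* level of these classes was not tested.

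Macrophage-like cells were the class with the most *Pdgfc* UMIs in both libraries. They held 48 UMIs in control, 32.1 CPM (23.6 to 42.5), and 134 UMIs in the knockout, 58.6 CPM (49.1 to 69.4). The log2 ratio of 0.87 (0.38 to 1.38) did not reach 2-fold. These cells held 55.2% of all *Pdgfc* UMIs of the control and 44.5% of those of the knockout library. Mixed cluster 8 held 29.9% of those of the control, and the cholangiocyte-like cells 33.6% of those of the knockout library. *Pdgfa* had 18 and 54 UMIs in macrophage-like cells, 12 CPM (7.13 to 19.0) and 23.6 CPM (17.7 to 30.8). *Tgfb1* stood at 277 CPM (251 to 305) and 317 CPM (294 to 341) in them, close to its level in LSECs, and *Tgfbr2* at 146 CPM (127 to 166) and 148 CPM (132 to 164). The log2 ratio of *Tgfbr2* in macrophage-like cells was 0.02 (−0.23 to 0.27). *Maf* itself, which macrophages also use, stood at 1505 CPM (1444 to 1569) and 1523 CPM (1473 to 1574) there. Endothelial RNA in these barcodes was unequal, with the endothelial markers at a median of 28.5% of their LSEC level in control and 13.6% in the knockout. *Tgfbr2* and *Maf* were both higher in control than in knockout LSECs. The part of carried-over RNA in their macrophage-like levels was not tested, so the near-equal values do not show that macrophages were unchanged.

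The 37 cholangiocyte-like cells of the knockout library, bile duct cells that carried little endothelial RNA (median 2.43% of the LSEC level), had the highest levels of 5 ligands among the 16 units. *Tgfb2* stood at 273 CPM (230 to 322), *Pdgfc* at 193 CPM (157 to 234), *Pdgfd* at 189 CPM (154 to 230), *Pdgfa* at 153 CPM (121 to 190) and *Tgfb3* at 43.9 CPM (27.8 to 65.9). *Tgfb1* was lowest there, at 15.3 CPM (6.59 to 30.1). For *Tgfb3* the interval overlapped with those of mixed cluster 6 (14.9 to 28.4 CPM) and the B cell-like cells (1.33 to 39.7 CPM) of the same library. In control no cluster was named cholangiocyte-like, and mixed cluster 8, whose leading genes included markers of stellate cells, cholangiocytes and hepatocytes, held *Pdgfa* at 28.9 CPM (20.5 to 39.7) and *Pdgfc* at 19.8 CPM (12.9 to 29.0). Cholangiocyte levels could therefore not be compared between the conditions. Mixed cluster 6 of the knockout library, with genes of the central vein, lymphatic, stellate and smooth muscle cells among its leading genes, held *Tgfb2* at 179 CPM (160 to 199), which was 47.4% of the *Tgfb2* UMIs of the library. It also had the highest *Tgfbr2* level of the 16 units, 456 CPM (426 to 487).

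*Tgfb1* was found in all classes. Of the 16 units, 14 stood between 181 and 324 CPM, with overlapping intervals from each to the next, and the lower levels were those of the neutrophil and monocyte-like cells of the knockout library (122 CPM, 89.3 to 163) and the cholangiocyte-like cells. The genes with the most similar pattern over the 16 units were *Mndal*, *Ubash3b*, *Abcg1*, *Zeb2* and *Msn*, with Pearson's r of 0.94 to 0.96.

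**Figure D3:**
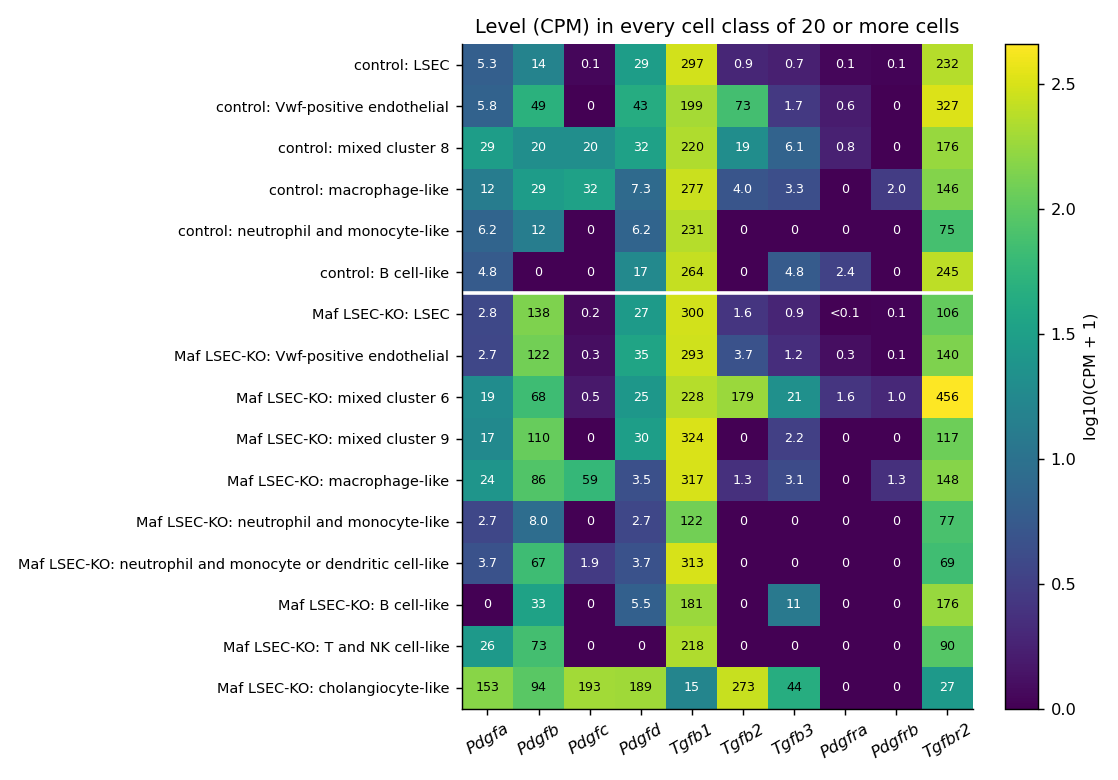
Level in CPM of the 10 genes (columns) in each cell class of 20 or more cells (rows) of the control library, above the white line, and the Maf LSEC-KO library, below it. Colour is log10(CPM + 1) and numbers are CPM. *Tgfb1* and *Tgfbr2* have UMIs in every row, *Pdgfb* is high in most Maf LSEC-KO rows, *Pdgfc* is found in macrophage-like and cholangiocyte-like cells, and the PDGF receptors have few UMIs in every row shown.

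Stellate cells, the receiving cells, were rare in these endothelial preparations. No cluster of either library was stellate-like, and the rule chosen for that case, UMIs of at least 5 of 17 stellate markers and of fewer than 5 of 14 endothelial markers, was met by 0 control and 8 knockout cells. Therefore barcodes with UMIs of 12 or more of the 17 stellate markers are described, a limit chosen after the values had been seen. There were 9 in control and 11 in the knockout, of 4181 to 28171 and 5063 to 91907 UMIs. All 9 in control and 8 of the 11 in knockout also held UMIs of 5 or more endothelial markers, and the endothelial markers stood at a median of 38.0% of their LSEC level in the former and 55.0% in the latter. Stellate and endothelial RNA thus shared barcodes, and *Maf* was found at 202 UMIs in the 9 and 39 UMIs in the 11 barcodes. Another 5 control and 13 knockout barcodes held 8 to 11 stellate markers, and the latter held 1440 UMIs of 4 muscle genes (*Acta2*, *Myh11*, *Tagln*, *Cnn1*).

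The PDGF receptor genes are *Pdgfra* (chromosome 5, 75152292 to 75198215, plus strand) and *Pdgfrb* (chromosome 18, 61045150 to 61085061, plus strand), and most of their UMIs lay in these barcodes. Of 47 *Pdgfrb* UMIs in the control library, 42 (89.4%) were in the 9 stellate-marked barcodes, and of 59 in the knockout library, 41 (69.5%) were in the 11. For *Pdgfra* the numbers were 36 of 48 (75.0%) and 42 of 60 (70.0%). All 9 control barcodes held UMIs of both receptors. Of the 11 knockout barcodes, 9 held both and 2 held *Pdgfrb* alone. The *Pdgfrb* UMIs per barcode had a lowest value of 1, a median of 4 and a highest value of 10 in control, and 1, 2 and 13 in the knockout. The barcodes of both libraries overlapped throughout. The barcode with 13 *Pdgfrb* UMIs was the only 1 of the 11 with 10 or more UMIs of the 4 muscle genes (368), and it held 0 *Pdgfra* UMIs.

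Scaled to all UMIs outside mitochondrial and ribosomal protein genes, *Pdgfrb* was lower in the knockout barcodes by a log2 ratio of −0.78 (−1.44 to −0.13), which does not reach 2-fold. Scaled to the UMIs of the 17 stellate markers, it had 8.29 UMIs per 1000 marker UMIs (5.98 to 11.2) in control and 6.62 (4.75 to 8.98) in the knockout, and the log2 ratio was −0.33 (−0.98 to 0.33). These markers are no neutral scale, as they include 8 quiescence genes, 4 of which were themselves called lower in the knockout barcodes. They also include *Col1a1* and *Col3a1*, which were called higher there, with log2 ratios of 1.12 and 1.27. *Pdgfra* had 7.11 (4.98 to 9.84) and 6.78 (4.89 to 9.17) UMIs per 1000 marker UMIs. A difference in either receptor per stellate marker UMI was not detectable at this depth. Without the barcode rich in muscle genes, *Pdgfrb* had 28 UMIs in the knockout and a log2 ratio of −1.24 (−1.98 to −0.52), which passes the 2-fold limit. *Tgfbr2* had 27 UMIs in the control and 24 in the knockout barcodes, and *Tgfb1* had 30 and 51.

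**Figure D4:**
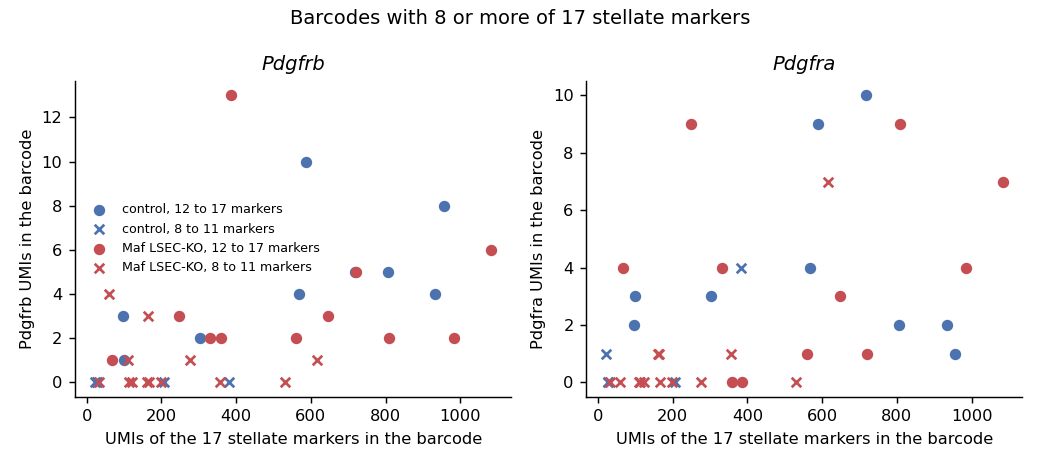
UMIs of *Pdgfrb* and of *Pdgfra* in each barcode against the UMIs of the 17 stellate markers in the same barcode. Circles are the 9 control and 11 Maf LSEC-KO barcodes with 12 or more markers, and crosses are the 5 and 13 barcodes with 8 to 11 markers. Circles of both libraries overlap, and the highest *Pdgfrb* value, 13 UMIs, belongs to the barcode rich in muscle genes.

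Ligand UMIs were rare in the stellate-marked barcodes. *Pdgfb* had 0 UMIs in control and 15 in the knockout, and 10 of these 15 were in 1 barcode that held 91907 UMIs and all 14 endothelial markers. *Pdgfb* in the 11 barcodes stood at 48.6% of its LSEC level, within the 37.5 to 72.9% of the endothelial markers. With 5.13% of 9940 genes called higher and 4.21% called lower in these barcodes, *Pdgfb* was the only one of the 7 genes of at least 10 CPM that was called. *Pdgfc* and *Tgfb3* had 0 UMIs in all 20 stellate-marked barcodes. In the 13 knockout barcodes with 8 to 11 stellate markers, which include cells with muscle genes, *Tgfb2* had 48, *Tgfb3* 38 and *Pdgfa* 32 UMIs, against 12, 3 and 4 in the 5 control barcodes of that kind. The genes with a pattern most like *Pdgfrb* over the 16 units, which contain few *Pdgfrb* UMIs, were *Slc16a9*, *Kcnj16*, *Chp2*, *Cd207* and *Fabp7* (r of 0.84 to 0.91), and this likeness rests on few counts.

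The other genes of the 2 pathways were counted in 8 lists. Of the TGF-beta receptors and co-receptors, all 8 reached 10 CPM in LSECs. *Tgfbr3*, the co-receptor betaglycan, was called lower, from 238 to 100.3 CPM, a log2 ratio of −1.25 (−1.30 to −1.19). With 0 of the 8 called higher and 1 called lower, the counts are near the 10.3% and 4.71% over all genes tested. The median of the list was −0.46 against 0.13 over all genes tested. The type I receptors *Tgfbr1* and *Acvrl1* stood at 30.1 and 43.2 CPM in control and at 26.6 and 62.0 CPM in knockout LSECs.

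Of the genes that store and activate latent TGF-beta, 14 of 20 reached 10 CPM, 4 were called higher and 2 lower (10.3% and 4.71% over all genes tested), with a median of 0.14. Scaled to the UMIs of all genes, 13 reached 10 CPM, 2 were called higher and 2 lower, and the median was −0.12. The higher ones were *Thbs1* (thrombospondin 1, an activator of latent TGF-beta), from 0.43 to 14.9 CPM with a log2 ratio of 5.13 (4.37 to 6.01), *Ltbp3* (a latent TGF-beta binding protein), from 1.19 to 11.4 CPM, *Fbn1* (fibrillin 1), from 22.1 to 103 CPM, and *Itgb3* (an integrin subunit), from 22.1 to 49.1 CPM. The lower ones were *Mmp14*, a membrane protease, from 195 to 67.0 CPM, and *Itgav*, the partner of *Itgb3*, from 26.0 to 12.4 CPM. *Ltbp4* and *Lrrc32*, which tether latent TGF-beta to matrix and to the cell surface, stood at 628 and 165 CPM in control and at 586 and 199 CPM in knockout LSECs.

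Of 20 genes known as TGF-beta targets, 15 reached 10 CPM in LSECs, 9 were called higher and 0 lower, and the median was 1.22. Among all genes tested 10.3% were called higher. *Thbs1*, which is also in the list of activators, *Ccn2* with 42.1 and 184 CPM (log2 ratio 2.13, 2.05 to 2.22), *Ccn1* with 18.6 and 69.4 CPM (1.90, 1.77 to 2.03) and *Cdkn1a* with 98.1 and 324 CPM (1.73, 1.67 to 1.78) had the largest ratios. The others were *Junb*, *Id1*, *Col4a1*, *Col4a2* and *Bhlhe40*. The feedback inhibitors of the list were not called, with log2 ratios of −0.07 for *Pmepa1*, 0.22 for *Skil* and 0.69 for *Smad7*. *Tgfbi*, a matrix protein gene named for its induction by TGF-beta, stood below 10 CPM with 176 UMIs in control and 54 in knockout LSECs, a log2 ratio of −1.96 (−2.43 to −1.52). Several of the 9 also answer to other signals. *Junb* is an immediate early gene, *Id1* a target of BMP signalling, *Ccn1* and *Ccn2* targets of YAP, *Cdkn1a* the p53 target that encodes p21, and *Col4a1* and *Col4a2* encode basement membrane collagen. Under the 13 alternative settings for LSECs, 9 or 10 of the list were called higher and 0 lower. Of the 14 SMAD signalling genes, which include the inhibitors *Smad6* and *Smad7*, all reached 10 CPM and 0 were called in either direction. Over all genes tested 10.3% were called higher and 4.71% lower.

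Of 16 PDGF pathway partners, 12 reached 10 CPM. *Plat*, the protease tPA that activates PDGF-C, was called higher, from 33 to 433 UMIs, and *Pik3r1*, a regulatory subunit of PI3-kinase, was called lower, from 148 to 59.3 CPM (−1.32, −1.39 to −1.24). The median was −0.06. With 10.3% of all genes called higher, 1 of 12 is no more than the background, and scaled to the UMIs of all genes 0 of 10 were called higher. Of 10 secreted inhibitors of the ligands, 3 reached 10 CPM and 0 were called. From the lists for stellate cell activation and quiescence only 4 of 22 and 4 of 15 genes reached 10 CPM in LSECs, where *Col5a2* and *Ccn2* of the former were called higher. Among those of the latter, *Pparg* was called higher and *Ecm1* lower. With 4 genes in each list, these calls are too few to set against the 10.3% higher and 4.71% lower over all genes tested. *Ccn2* is also counted among the TGF-beta targets.

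**Figure D5:**
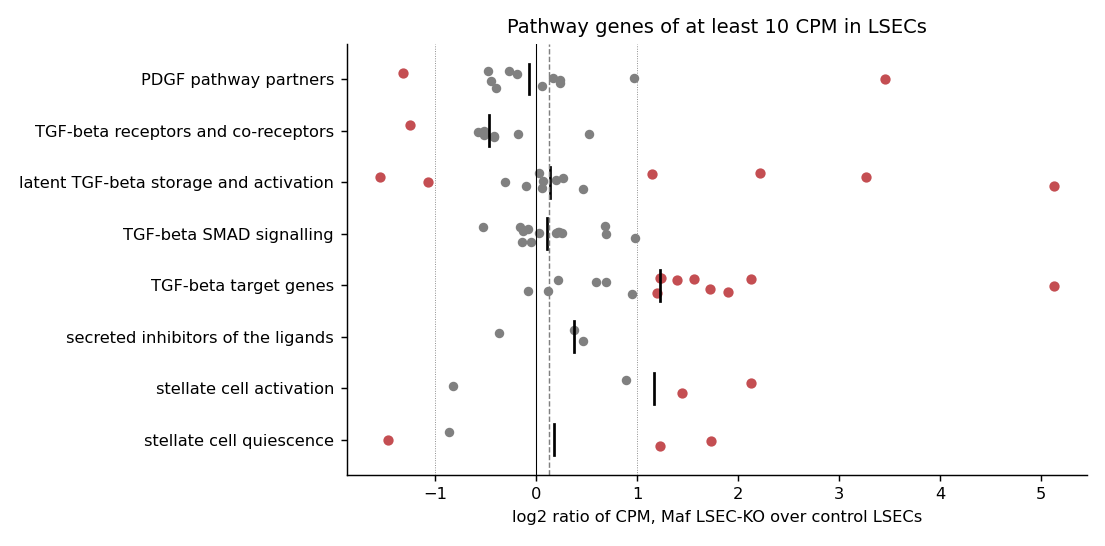
Log2 ratio of CPM between Maf LSEC-KO and control LSECs for the genes of 8 lists that reached 10 CPM in either library. Red points were called, black bars are list medians, the dashed line is the median of all genes tested (0.13) and dotted lines mark 2-fold. Most points of the TGF-beta target list lie right of the dashed line, and those of the receptor list mostly left of it.

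In the stellate-marked barcodes, 7 of 14 quiescence genes of at least 10 CPM were called lower and 0 higher (4.21% and 5.13% over all genes tested there), with a median of −1.14 against 0.05 over all genes tested there. *Hgf*, hepatocyte growth factor, had 240 UMIs in 8 of 9 control barcodes and 70 UMIs in 10 of 11 knockout barcodes, a log2 ratio of −2.52 (−2.93 to −2.13). *Ngfr*, *Hhip* and *Ecm1* had log2 ratios of −1.85, −1.48 and −1.26. Of the 15 genes of this list, 8 are among the markers by which the barcodes were chosen, and of the 6 others of at least 10 CPM, 3 were called lower. *Hgf* and *Ecm1* are also used by LSECs. Endothelial RNA differed between these barcodes, as given above, and its part in these ratios was not tested.

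Against the same background, 5 of 19 activation genes of at least 10 CPM were called higher in the stellate-marked barcodes, which are *Acta2*, *Tagln*, *Col1a1*, *Col3a1* and *Vim*, and *Postn* was called lower. All 143 *Acta2* UMIs and 116 of 132 *Tagln* UMIs were in the 1 barcode rich in muscle genes. Without it *Vim* alone was called higher, and *Col5a2* and *Postn* were called lower. *Col3a1* then had a log2 ratio of 0.56 (0.18 to 0.94) and *Col1a1* 0.45 (−0.35 to 1.29). Among barcodes with 15 or more stellate markers (6 and 8), *Col1a1* (1 and 34 UMIs) and *Vim* were called higher and *Postn* lower. *Col1a1* and *Col3a1* are among the markers by which the barcodes were chosen. *Vim*, which encodes the intermediate filament vimentin, had UMIs in all 9 and all 11 barcodes, 52 and 221 in sum. Of 19 TGF-beta targets of at least 10 CPM in these barcodes, 7 were called higher and 0 lower (5.13% and 4.21% over all genes tested), and without the barcode rich in muscle genes 6 were called higher and *Pmepa1* was called lower. *Smad7*, the inhibitor that TGF-beta itself induces, had 18 UMIs in 5 of 9 control barcodes and 88 UMIs in 10 of 11 knockout barcodes, a log2 ratio of 1.54 (0.80 to 2.36). *Skil*, another such inhibitor, had 4 and 27 UMIs. *Cdkn1a*, with 1 and 80 UMIs, and *Bhlhe40*, with 1 and 39, were found in 5 and 7 of the 11 knockout barcodes, and 51 of the 80 *Cdkn1a* UMIs were in 1 of them. Of 7 receptors and co-receptors of at least 10 CPM, 3 were called lower and 0 higher (4.21% and 5.13% over all genes tested). These were *Tgfbr3*, the pseudoreceptor gene *Bambi* and the activin receptor gene *Acvr2a*, with log2 ratios of −1.26, −1.52 and −1.16. With 15 or more stellate markers *Acvr2a* was not called. Of 14 SMAD signalling genes, *Smad7* and *Skil* were called higher. Of 13 PDGF pathway partners, 19 storage and activation genes and 7 secreted inhibitors, 0 were called. With 9 and 11 barcodes from 1 library per condition, the spread between barcodes is not covered by these intervals. Of the 7 called targets, *Id1*, *Bhlhe40*, *Junb* and *Cdkn1a* were also called higher in knockout LSECs, and *Smad7*, *Skil* and *Tagln* were not. *Tgfbr3* was also called lower in LSECs, and *Bambi* and *Acvr2a* were not. The barcodes also differed in endothelial RNA, as given above, and its part in these calls was not tested.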

How the data were processed

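The authors aligned the reads to mm10 with Cell Ranger 6.0.2 and deposited UMI counts, whole numbers per gene and barcode without normalization, for barcodes of at least 500 UMIs (5664 in control with 47681895 UMIs and 7091 in Maf LSEC-KO with 89872764 UMIs). Their subtraction of empty droplets is not part of these counts. Of these barcodes, 4961 and 5423 had both 1500 UMIs and 750 genes or more and were used, and 10 barcode sequences occur in both libraries. Each library was clustered with Seurat 5.3.0 (16 and 20 principal components, resolution 0.3). Scrublet (scanpy 1.11.5) called 0 doublets on its own, so the top scores were removed at 0.8% per 1000 barcodes (225 and 308). LSEC clusters had at least 7 of 14 endothelial markers in 50% of cells and fewer than 3 markers of another type among their top 10 genes by fold, a rule chosen after values were seen. Clusters that failed it are called mixed. Other clusters were named from 3 or more markers among their top 50 genes. Stellate-marked barcodes kept called doublets (1 in Maf LSEC-KO).

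UMIs were summed per class. Poisson, Clopper-Pearson and conditional binomial intervals (95%) were computed with scipy 1.17.1, and a sum of 0 was given a limit of 3 counts. There were no replicates and no tests. The text names the 10 genes, *Maf*, called genes of the lists (up to 4 per list with the largest ratio in full) and the 5 genes most like *Pdgfb*, *Tgfb1* and *Pdgfrb*. Genes, lists and alternatives were chosen with earlier results of these data known. The computation was tested on simulated counts. Neighbouring or overlapping genes were not checked. The study's other assays were not analysed here. A result for 1 gene of the lists is not reported here.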

Additional observations from a re-analysis of the deposited data

Results flagged for a closer look

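*Pdgfa* moved in opposite directions in 2 cell classes, with both intervals excluding 1. With Maf LSEC-KO set over control, its log2 ratio was −0.93 (−1.29 to −0.58) in LSECs, from 175 and 110 UMIs, and 0.97 (0.18 to 1.83) in macrophage-like cells, from 18 and 54 UMIs. The difference between these 2 ratios was not tested. In LSECs the gene stood below the minimum of 10 CPM in both libraries, and in neither class did the ratio reach 2-fold.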

How the results depend on the processing

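No paired analysis was possible because each condition has 1 library. The count of 2 genes called in LSECs (*Pdgfb* and *Tgfbr2*) held under 14 of 16 settings and was 1 (*Pdgfb*) with the mean over cells of CPM and without cycling cells, where *Tgfbr2* fell short of 2-fold. The *Pdgfb* log2 ratio of 3.26 was 3.07 with scaling to the UMIs of all genes, 3.05 with *Vwf*-positive cells kept and 3.46 with each cell thinned, and lay within its counting interval under the other 10. Among the other genes in LSECs, no called ratio changed direction. *Pdgfd* ranged from −0.28 to 0.06, *Tgfb1* from −0.17 to 0.06, *Tgfbr2* from −1.32 to −0.91 and *Tgfb2* from −1.06 to 1.41. *Pdgfrb* in stellate-marked barcodes ranged from −1.31 (15 or more markers) to −0.30 (mean over cells of CPM), always lower in Maf LSEC-KO. The interval included 0 after thinning (8 and 5 UMIs) and with scaling to stellate markers. Barcodes with fewer than 5 endothelial markers gave no value, as control had 0. Scaling to all UMIs moved the calls over all genes in LSECs from 958 higher and 438 lower to 669 and 586, and median-of-ratios scaling to 850 and 507. Settings on immune RNA, mixed clusters (also with *Vwf*-positive cells), control clusters 2 and 4, and stellate markers were chosen after seeing the data.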
